A study of Mus musculus with 2 samples.

Results

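Members of the tumour necrosis factor (TNF) receptor superfamily that T cells carry were followed in activated CD4 T helper cells labelled as knockout for Gfi1 or as wild type. The set was fixed by gene symbol and not by level: Tnfrsf1a, Tnfrsf1b, Tnfrsf4, Tnfrsf8, Tnfrsf9, Tnfrsf14, Tnfrsf18, Tnfrsf25, Cd27 and Fas. These are 10 of the 20738 named genes on the arrays. All probes annotated with one of these symbols were taken, which gave 14 probes on 24 spots. Tnfrsf1a, Tnfrsf9, Tnfrsf14 and Cd27 were read by 2 probes each and the other 6 genes by 1.

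Receptors of this superfamily bind trimeric ligands of the TNF family through cysteine-rich repeats outside the cell. Members with a death domain (Fas, Tnfrsf1a and Tnfrsf25) recruit the adaptors FADD or TRADD and can start caspase-8 activation, while the others bind TRAF proteins and pass the signal to NF-κB and JNK. On activated CD4 T cells, OX40, 4-1BB and GITR (encoded by Tnfrsf4, Tnfrsf9 and Tnfrsf18) are known as costimulatory receptors induced by antigen receptor signals, CD27 acts early after priming, and Fas mediates activation-induced death. Gfi1 encodes a zinc-finger repressor of transcription.

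The knockout-labelled culture and the wild-type-labelled culture were both from C57BL/6 spleen, with 1 array each. In both, naive CD4 T cells had been stimulated for 2 days with plate-bound antibody to TCR-β (3 μg/ml) and with antibody to CD28 (1 μg/ml), with IL-2 (10 ng/ml) and with antibodies that neutralise IL-4 and IFN-γ (5 μg/ml each). The labels give neither the knockout allele nor the number of animals behind each culture. With 1 array per genotype there is no spread between cultures, so no p-value is given, and every SD below is over probes of a gene or spots of a probe within these arrays.

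The libraries are called by their labels because the targeted gene ran against them. The single Gfi1 probe read 18100 units in the knockout-labelled library, against 4260 units in the wild-type-labelled library. The sources used here do not place this probe relative to the deleted part, and outside that part it would check nothing. The libraries also differed in sex-linked transcripts. Xist read 3.86 units in the knockout-labelled library and 447 units in the wild-type-labelled library, and the Y-linked Eif2s3y read 3870 and 2.91 units in the same order. Genotype and these sex-linked readings cannot be told apart. All 11 CD4 T cell markers with a named probe were detected in both libraries, Cd4 itself at 2146 units in the knockout-labelled library and 2319 units in the wild-type-labelled library. Of these markers 2 were above 0 and 9 below, with a median log2 difference of -0.23. Only Cd247 was past 2-fold, higher in the knockout-labelled library at 1.85 ± 1.99 (SD over 2 probes). Of all detected genes 3.62% were past 2-fold in that direction.

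Signals are in scanner units on a linear scale. Differences are on the log2 scale, knockout-labelled minus wild-type-labelled, after subtracting each array's 75th percentile over probes (269 units in the knockout-labelled library and 263 units in the wild-type-labelled library). A probe counted as detected above its array's median (14.6 units in the knockout-labelled library and 14.2 units in the wild-type-labelled library). Signal heights are not compared between probes as amounts of RNA, since each probe has its own brightness. Sums over a list mix such probes, so a gene's share of a sum is not its share of RNA. For probes spotted 10 times on each array, the difference varied from spot to spot with a median SD of 0.11 (signals of 50 to 500 units) or 0.05 (500 to 5000 units).

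Averaged over its probes, no detected receptor differed by 2-fold between the libraries, although 1 of the 2 Tnfrsf9 probes did. Tnfrsf8 was not detected and gave no difference. Of the 10 members 9 were detected, all of them on both arrays, with 0 past 2-fold upward and 0 past 2-fold downward in the knockout-labelled library. Among all 13411 detected genes, 3.62% were past 2-fold upward and 1.52% downward, so a count of 0 among 9 is near this background. At 1.5-fold the counts were also 0 and 0, against 7.67% and 4.25% of all detected genes. Of the members 7 read at least 500 units on both arrays, and among the 6464 genes that did so 0.897% were past 2-fold upward and 0.108% downward, with 2.99% and 0.835% past 1.5-fold. The differences of the members ran between -0.50 (Tnfrsf25) and 0.55 (Fas), a range that held 86.0% of all detected genes. Their median was 0.03, with 5 members above 0 and 4 below, beside a median of -0.05 over all detected genes. Of all detected genes 41.7% had a difference above -0.0004, a value just below 0. This share is the background for the counts above 0 of every list here. The median of the members was -0.064 when only the brightest probe of each gene was used. In a bulk culture, fewer cells that carry a receptor and less RNA per cell cannot be told apart.

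**Figure D1:**
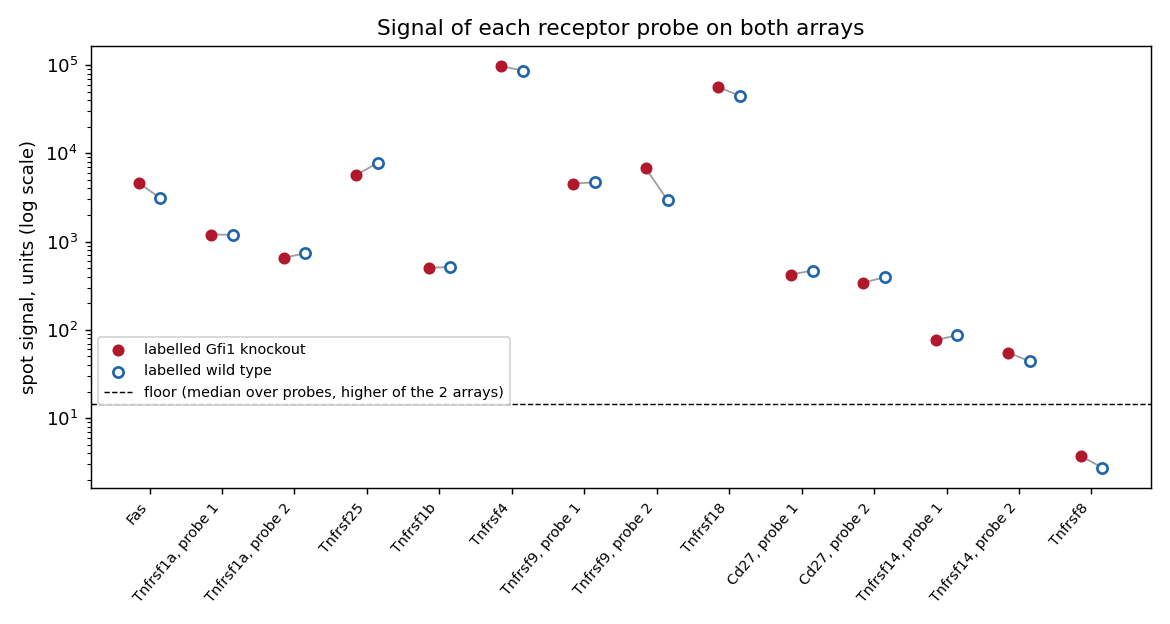
Signal of each receptor probe in scanner units on a log axis, with the knockout-labelled library left (filled) and the wild-type-labelled library right (open) for each probe, and the detection floor as a dashed line. The Tnfrsf8 probe lies below the floor in both libraries, and the second Tnfrsf9 probe has the steepest line, with 6740 units in the knockout-labelled library against 2940 units in the wild-type-labelled library.

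**Figure D2:**
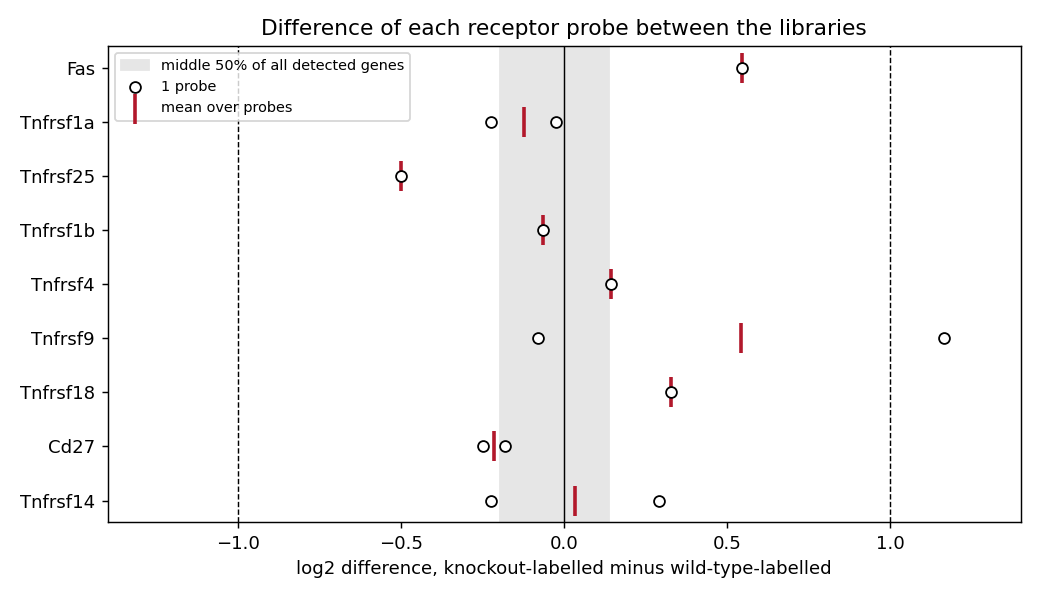
Log2 difference (knockout-labelled minus wild-type-labelled) of each detected receptor probe as an open circle and of each gene as a red bar, with 2-fold limits dashed and the middle 50% of all detected genes shaded. Only 1 of 13 probes, of Tnfrsf9, lies past a limit.

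The death domain receptors did not share a direction. Fas, the receptor for Fas ligand, was the highest of the members. Its single probe was printed on 2 spots, which read 4500 and 4760 units in the knockout-labelled library, against 3060 and 3140 units in the wild-type-labelled library. The spot readings of the libraries did not overlap. The difference was 0.55 ± 0.03 (SD over 2 spots), a 1.46-fold higher signal, and 8.21% of all detected genes had a larger positive difference. Across 13 other settings of scaling, floor, probes and values it lay between 0.54 and 0.61. Settings of floor and probe choice could not change a gene read by 1 bright probe, so this range mostly reflects scaling. The difference is wider than the spread over spots at this brightness, while the spread between cultures is unknown.

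Tnfrsf1a, which encodes the widely expressed TNF receptor 1, was the most densely measured member. Its first probe was printed on 10 spots. These ran from 1150 to 1270 units (median 1180) in the knockout-labelled library and from 1140 to 1270 units (median 1190) in the wild-type-labelled library. The readings overlapped almost fully, and the mean difference over spots was -0.02 ± 0.05 (SD), with 3 spots above 0 and 7 below. The second probe, on 1 spot, read 651 units in the knockout-labelled library and 743 units in the wild-type-labelled library (-0.22). The gene stood at -0.12 ± 0.14 (SD over 2 probes).

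Tnfrsf25 encodes death receptor 3 (DR3), the receptor of the cytokine TL1A, and was the lowest of the members. Its single spot read 5650 units in the knockout-labelled library, against 7820 units in the wild-type-labelled library. The difference was -0.50, a signal 0.71 times that of the wild-type-labelled library, and 5.79% of all detected genes were lower. The spot has a feature number above 50000, a range that was left out in one alternative. Among spots of at least 500 units, a difference as low as that of Tnfrsf25 was found in 1.72% of 2616 spots above this number and in 1.88% of 10307 spots at lower numbers. The gene has no other spot on the array, so this reading has no repeat.

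Among the costimulatory receptors, Tnfrsf9 gave readings that depend on the probe. Tnfrsf9 encodes 4-1BB, a TRAF-binding receptor of activated T cells. The first probe, A_55_P2029061, read 4550 units in the knockout-labelled library and 4700 units in the wild-type-labelled library. The second, A_55_P2082180, read 6740 and 2940 units in that order. The first probe thus differed by -0.08 and the second by 1.16, a 2.24-fold higher signal in the knockout-labelled library. The mean of the gene was 0.54 ± 0.88 (SD over 2 probes), and with the brightest probe alone the gene stood at -0.08, so its direction rests on the choice of probe.

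A gap of this width between bright probes of a gene was rare. Of 965 genes with exactly 2 detected probes, both at 500 units or more on both arrays, the median gap between the probes' differences was 0.06. Only 1.55% of them (15 genes) had a gap of 0.5 or more. Tnfrsf9 had the widest gap of all, at 1.24. The next was Eif2s3x, the X-linked relative of the Y-linked gene above, at 1.23. Tnfrsf9 was set against these genes after its probes had been seen to differ.

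**Figure D3:**
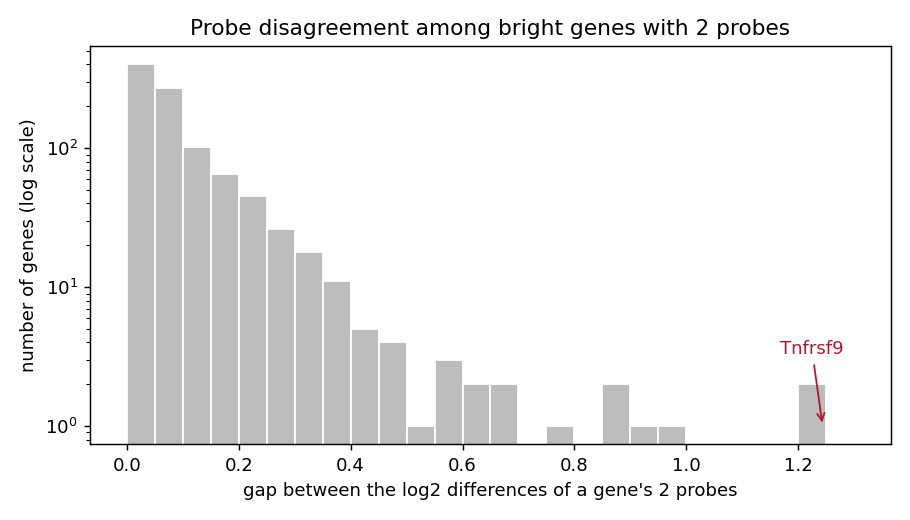
Number of genes (log axis) by the gap between the log2 differences of their 2 probes, for the 965 genes whose 2 probes both read at least 500 units on both arrays. Tnfrsf9, marked by the arrow, lies at 1.24, at the far right of the distribution.

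The reference annotation gives Tnfrsf9 a pair of transcription starts on chromosome 4. Which transcripts each probe reads is not known here. The 250 bases before each start are shown because the probes of this gene disagree, and those of Fas because it was the highest member. All are from RefSeq (build GRCm38.p6), on the plus strand. They lie at chr4:150919905-150920154 and chr4:150927749-150927998 for Tnfrsf9 and at chr19:34290409-34290658 for Fas. Capitals mark matches to the NFAT core GGAAA, the AP-1 motif TGANTCA or the κB consensus on either strand.
Tnfrsf9, upstream start: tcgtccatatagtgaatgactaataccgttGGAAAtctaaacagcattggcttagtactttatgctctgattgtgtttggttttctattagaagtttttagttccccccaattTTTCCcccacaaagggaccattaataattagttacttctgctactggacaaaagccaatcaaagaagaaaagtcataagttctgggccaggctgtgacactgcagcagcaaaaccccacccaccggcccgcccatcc
Tnfrsf9, downstream start: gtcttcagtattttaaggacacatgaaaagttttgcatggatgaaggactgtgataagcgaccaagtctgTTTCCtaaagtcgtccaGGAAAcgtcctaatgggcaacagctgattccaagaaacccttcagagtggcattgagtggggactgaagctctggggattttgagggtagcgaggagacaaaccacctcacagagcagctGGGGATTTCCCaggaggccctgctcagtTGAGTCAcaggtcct
Fas: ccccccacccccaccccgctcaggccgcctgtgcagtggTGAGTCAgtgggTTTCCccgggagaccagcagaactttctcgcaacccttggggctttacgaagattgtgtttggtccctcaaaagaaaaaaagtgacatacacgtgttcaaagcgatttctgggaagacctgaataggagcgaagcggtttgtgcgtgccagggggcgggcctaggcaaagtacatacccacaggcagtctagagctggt

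NFAT, AP-1 and NF-κB are the factor families that antigen receptor signals activate, which is why their letters were searched. The window of the downstream Tnfrsf9 start held 3 matches to GGAAA and a TGANTCA match that ends 9 bases before the start, and overlapping matches to the κB consensus between 43 and 33 bases before it, which share bases with a GGAAA match. The window of the upstream start held 2 GGAAA matches and none of the others. The Fas window held 1 GGAAA and 1 TGANTCA match. GGAAA was found in 9 of the 12 windows of the members, and in 55.6% of 32851 such windows over all genes. TGANTCA was found in 3 of the 12, of Fas, Tnfrsf9 and Tnfrsf8, and in 6.75% of all. A core of the GFI1 motif, AATCAC, was found in 1 of the 12, that of Tnfrsf1b, and in 9.14% of all. The κB consensus was found in 3 of the 12, of the downstream starts of Tnfrsf9 and Tnfrsf25 and of Tnfrsf8, and in 7.25% of all. The T-box letters GGTGTGA were found in 0 of the 12 and in 3.33% of all. These are matches of letters and not shown to be bound.

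Tnfrsf4 and Tnfrsf18, encoding OX40 and GITR, are neighbours on chromosome 4 and gave bright probes in both libraries. Tnfrsf4 read 97500 units in the knockout-labelled library and 86300 units in the wild-type-labelled library (0.14, 1 spot). Tnfrsf18 read 56900 units in the knockout-labelled library, against 44300 units in the wild-type-labelled library (0.33, 1 spot). Under 13 other settings Tnfrsf4 lay between 0.14 and 0.19 and Tnfrsf18 between 0.32 and 0.38. Settings of floor and probe choice could not change a gene read by 1 bright spot. These ranges are thus no check on the readings, which have no repeat. A larger positive difference was found in 24.5% of detected genes for Tnfrsf4 and in 13.8% for Tnfrsf18. Both genes are also known as abundant in regulatory T cells. Their upstream windows are shown because the genes lie side by side and both read higher in the same library, at chr4:156013445-156013694 for Tnfrsf4 and chr4:156026072-156026321 for Tnfrsf18, both on the plus strand, with GGAAA matches in capitals.
Tnfrsf4: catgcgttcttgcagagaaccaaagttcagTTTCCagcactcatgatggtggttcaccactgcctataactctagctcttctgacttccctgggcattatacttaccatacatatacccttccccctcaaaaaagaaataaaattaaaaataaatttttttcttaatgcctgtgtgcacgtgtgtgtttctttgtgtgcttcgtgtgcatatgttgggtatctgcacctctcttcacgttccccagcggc
Tnfrsf18: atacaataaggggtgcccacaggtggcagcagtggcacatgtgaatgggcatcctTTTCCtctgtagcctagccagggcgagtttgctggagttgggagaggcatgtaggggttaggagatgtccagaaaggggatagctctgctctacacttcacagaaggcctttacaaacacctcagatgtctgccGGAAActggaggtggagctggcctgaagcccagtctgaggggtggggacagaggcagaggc

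Markers of regulatory T cells were read for this reason. Of 11 listed, 8 were detected, 6 above 0 and 2 below. Their median was 0.25, but 0.14 with no floor and 0.46 without spots above feature number 50000. Foxp3, which defines these cells, was dim at 85.8 units in the knockout-labelled library and 56.9 units in the wild-type-labelled library (0.56). Lrrc32, a surface anchor of latent TGF-β, stood at 1.02 and Nt5e, the ectonucleotidase CD73, at -1.19. The summed signal of the detected markers was 46824 units in the knockout-labelled library and 37554 units in the wild-type-labelled library. Most of it was the single gene Il2ra, which activated T cells also express, and without it the sums were 4024 and 3354 units in that order. Gpr83 was below the floor in the knockout-labelled library only. The part of these cells in the Tnfrsf4 and Tnfrsf18 readings was not tested.

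Cd27, the receptor of CD70, was slightly lower in the knockout-labelled library on both of its probes. The first probe read 424 units in the knockout-labelled library and 470 units in the wild-type-labelled library. The second read 342 and 397 units in that order. The gene stood at -0.21 ± 0.05 (SD over 2 probes), and 22.8% of all detected genes were lower. Unlike those of Tnfrsf9, its probes gave nearly the same difference, and under 13 other settings it lay between -0.22 and -0.15.

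Tnfrsf14 encodes HVEM, a receptor that binds LIGHT, lymphotoxin and the inhibitory receptors BTLA and CD160. Its probes were dim and pointed in opposite directions. The first read 76.5 units in the knockout-labelled library and 87.3 units in the wild-type-labelled library (-0.22), and the second read 55.2 and 44.1 units (0.29) in that order. The gene stood at 0.03 ± 0.36 (SD over 2 probes), so no direction can be given, and with the brightest probe alone it stood at -0.22.

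Tnfrsf1b, encoding the TRAF-binding TNF receptor 2, read 505 units in the knockout-labelled library and 516 units in the wild-type-labelled library. Its difference of -0.06 (1 spot) was close to the median of all genes and reached 0.00 with cyclic loess scaling. Tnfrsf8, encoding CD30, was below the floor in both libraries, at 3.74 units in the knockout-labelled library and 2.75 units in the wild-type-labelled library, so no fold is given. It lies next to Tnfrsf1b on chromosome 4, and 7 of the 10 members lie on that chromosome.

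**Figure D4:**
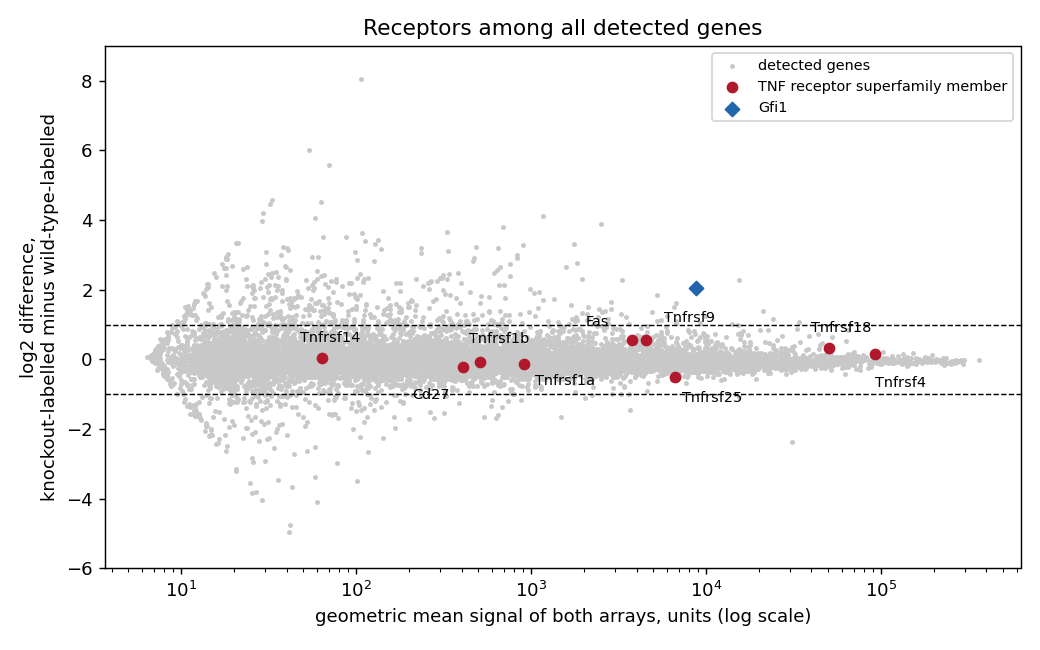
Log2 difference (knockout-labelled minus wild-type-labelled) against the geometric mean signal of both arrays (log axis) for 13411 detected genes, with the 9 detected receptors in red and Gfi1 as a blue diamond. All 9 lie between the dashed 2-fold limits, Fas and Tnfrsf9 close together at 0.55 and 0.54.

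Of 12 listed ligands and binding partners 11 were detected, with 1 past 2-fold upward and 1 downward in the knockout-labelled library, beside 3.62% and 1.52% of all detected genes. There were 7 above 0 and 4 below, with a median of 0.43, beside -0.05 over all detected genes. The median of the list was 0.26 with no floor and 0.29 without spots above feature number 50000. The difference between ligands and receptors was not tested. Lta encodes lymphotoxin alpha, which binds both TNF receptors and HVEM. Its 10 spots ran from 10300 to 12400 units in the knockout-labelled library, against 3590 to 4310 units in the wild-type-labelled library, without overlap. It stood at 1.5 ± 0.05 (SD over spots), whereas its receptors Tnfrsf1a, Tnfrsf1b and Tnfrsf14 stood at -0.12, -0.06 and 0.03. Tnf, read by 10 spots, stood at 0.66 ± 0.05, with 902 to 972 units in the knockout-labelled library and 557 to 608 units in the wild-type-labelled library.

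In the remaining pairs the ligand was set beside its receptor. Fasl, encoding Fas ligand, read 2050 units in the knockout-labelled library and 1410 units in the wild-type-labelled library, a difference of 0.51 beside 0.55 for Fas. Tnfsf9, the ligand of 4-1BB, read 786 and 472 units in that order (0.70). Cd70 stood at 0.49 (1320 units in the knockout-labelled library, 916 units in the wild-type-labelled library) while its receptor gene Cd27 stood at -0.21. The remaining single-probe partners were Tnfsf14 at 0.43, Tnfsf15 at 0.10, Tnfsf8 at -0.08, Btla at -0.10 and Tnfsf4 at -0.12. Cd160, a partner of HVEM, was the lowest at -1.31, on a dim spot of 37.3 units in the knockout-labelled library and 90.7 units in the wild-type-labelled library, and stood at -1.03 with an offset of 16 units. Tnfsf18, the ligand of GITR, was below the floor in both.

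Genes downstream of the receptors were counted in the same way, and the counts of 0 past 2-fold that follow are near the background of 3.62% and 1.52% for lists of this size. Beside the counts above 0, 41.7% of all detected genes lay above -0.0004, and their median was -0.05. Whether a list leans to one side was not tested. Of 14 TRAF adaptors and ubiquitin ligases all were detected, 0 were past 2-fold in either direction, 11 were above 0 and 3 below, and the median was 0.10. The largest differences were those of Tnfaip3, which encodes the NF-κB-limiting enzyme A20, at 0.85 (3550 units in the knockout-labelled library, 1920 units in the wild-type-labelled library), and of Traf1 at 0.63 (16300 and 10300 units in that order). Of 16 NF-κB genes and inhibitors 0 were past 2-fold, 14 were above 0 and 2 below, with a median of 0.09. The largest differences there were of the inhibitor genes Nfkbib (0.54 ± 0.01, SD over 3 probes) and Nfkbia (0.46). Of 10 detected death domain adaptors, caspases and related genes 0 were past 2-fold, 4 were above 0 and 6 below, with a median of -0.04 that was 0.13 with the brightest probe per gene or a floor at the 75th percentile. The largest were Mlkl, the effector of necroptosis, at 0.88 and Cflar, which encodes the caspase-8 inhibitor c-FLIP, at 0.77 ± 0.35 (SD over 3 probes), which was 0.38 with the brightest probe and 0.43 with the higher floor.

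Markers of other cell types that can carry these receptors were also read. Over all detected genes 3.62% were at least 2-fold higher in the knockout-labelled library, and the median was -0.05. Of 16 CD8 T and NK cell markers all were above 0 and 8 at least 2-fold higher, with a median of 1.02. The summed signal of these markers was 4394 units in the knockout-labelled library and 1943 units in the wild-type-labelled library. Of these markers 6 were below the floor in the wild-type-labelled library only. They were kept through the knockout-labelled library, so with the floor their differences could only lie above 0. With probes detected on both arrays the median of the list was 1.57, and with an offset of 16 units 0.78. Of 9 detected B cell markers 7 were above 0, 2 below and 3 at least 2-fold higher, with a median of 0.37 and summed signals of 1307 and 589 units in that order. Of 9 detected myeloid and dendritic cell markers 6 were above 0, 3 below and 2 at least 2-fold higher, with a median of 0.14, which was 0.03 with probes detected on both arrays. The summed signals of these markers were 16203 units in the knockout-labelled library and 9541 units in the wild-type-labelled library. Most of this was from Ctss, a lysosomal protease gene, and without it the sums were 1602 and 881 units. The 2 past 2-fold were Mpeg1 and Zbtb46. Mpeg1 stood at 4.53, with 335 units in the knockout-labelled library and a reading below the floor in the wild-type-labelled library. Zbtb46 stood at 1.21 ± 0.39 (SD over 2 probes). Lyz2, Itgax, Cd14 and Fcgr3 were below the floor in both libraries. Their part in the readings of Fas, Tnfrsf9 and Cd27, which such cells can also express, was not tested.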

How the data were processed

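RNA of 1 knockout-labelled and 1 wild-type-labelled culture was read on 1-colour (Cy3) mouse arrays from 100 ng of total RNA each, per the labels' protocols. The authors processed the arrays with Agilent Feature Extraction 11.5.1.1, per the submitters' processing notes. The deposited per-array files give an intensity per spot on a linear scale under a header that calls it raw. Its background correction is not stated in those sources, and flags are not used here. The authors' second deposited table gives intensities that are the per-array ones times about 2.26 (knockout-labelled) and 2.27 (wild-type-labelled); why is unknown, and it served as an alternative.

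Signals were put on the log2 scale, averaged over spots of a probe, scaled to each array's 75th percentile and set to the floor (the array's median) where below it. Probes below the floor on both arrays were left out. Probes of a gene were averaged, and quoted gene signals are geometric means. Names came from the platform annotation, updated through RefSeq (GRCm38.p6). The files name no build, so coordinates are given for RefSeq windows only. Since each genotype has 1 array, no test could be run, and genes were counted from a log2 difference of 1 upward or downward. The number of arrays limits precision.

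The members, lists and alternatives were chosen with earlier results of these data known. The rule for named genes takes all members, up to 4 genes past 2-fold of each other list or else its 2 largest, Gfi1, Actb, Gapdh and Hprt; not all are named. Other ligands, Foxp3, Gpr83, Il2ra, Ctss, Tnfrsf13c, Xist, Eif2s3y, Eif2s3x, Cd4, the undetected myeloid markers and the promoter motifs fall outside this rule. They were chosen after values had been seen. The calling of genes past 2-fold under the main settings and the motif search were tested on simulated data. The other steps were not. Software was Python 3.11.15 with pandas 2.3.3, numpy 2.4.6, matplotlib 3.10.9 and statsmodels 0.14.6.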

Additional observations from a re-analysis of the deposited data

How the results depend on the processing

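The counts of members past 2-fold were 0 higher and 0 lower under all 15 other settings, 1.5-fold and 3-fold limits included, and none of the 115 member differences under 13 settings was past 2-fold. The 3-fold count follows from the 2-fold count. Settings of floor and probe choice could not change members read by 1 bright probe, so these settings are not separate checks. The sign of Tnfrsf9 and Tnfrsf14 turned with the brightest probe per gene, and that of Tnfrsf1b with cyclic loess. The median of the members was -0.064 with the brightest probe. Other scalings moved the median of all genes by at most 0.06. Counts over all genes depended on the floor and on dim spots, with 485 higher and 204 lower as reported. With the floor set to the 25th percentile they were 980 and 634, with the 75th 136 and 20, and with no floor 1004 and 638. The lower genes numbered 125 with probes detected on both arrays, 117 with an offset of 16 units and 105 without spots above feature number 50000. At 1.5-fold there were 1029 and 570, and at 3-fold 215 and 87. Without spots above 50000 Tnfrsf25 had no value, and Tnfrsf14 had none with a floor at the 75th percentile. The only spots of Gfi1, Traf1, Mlkl, Nfkbia, Egr3 and Tnfsf14 also lie above 50000, so these genes had no value there either. No paired analysis was possible because each genotype has 1 array, and no array could be left out.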

Other observations

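Among other genes of the TNF receptor superfamily, 14 of 18 listed were detected. Of these, 1 was past 2-fold upward and 0 downward in the knockout-labelled library, beside 3.62% and 1.52% of all detected genes. There were 8 above 0 and 6 below, with a median of 0.04. The 1 past 2-fold was Cd40, the receptor through which B cells and dendritic cells answer CD40 ligand on T cells. It read 102 units in the knockout-labelled library and 17 units in the wild-type-labelled library, a difference of 2.55 on 1 dim spot. With an offset of 16 units it was 1.81, and it had no value under the floor set at the 75th percentile of signal. The B cell receptor gene Tnfrsf13c, encoding the BAFF receptor, stood at -0.60 ± 0.19 (SD over 2 probes).

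Antigen receptor signals are known to induce OX40 and 4-1BB along with early activation genes. Of 20 T cell activation genes 5 were past 2-fold upward and 1 downward in the knockout-labelled library, beside 3.62% and 1.52% of all detected genes. Their median was 0.26, beside -0.05 over all detected genes. Of these 20 genes 14 were above 0 and 6 below. Ifng stood at 4.11, Il2 at 2.14 and Nr4a3 at 1.46, while Egr3 was below the floor in the knockout-labelled library and read 158 units in the wild-type-labelled library. Beside these, Tnfrsf4 stood at 0.14, and of the 2 Tnfrsf9 probes 1 stood at -0.08 and 1 at 1.16.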
